A study of Rattus norvegicus with 4 samples.

Results

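The miR-15 family, with miR-15b, miR-16, miR-195 and miR-497 as its members here, was examined in small RNA sequencing of rat costochondral chondrocytes and of the matrix vesicles (MVs) that these cells leave in their extracellular matrix. The members were all products numbered miR-15, miR-16, miR-195 or miR-497 in the deposited count table, whatever their letter or arm suffix. They were 8 products of 4 genes, among 740 miRNA names in all. Their main products, the 5p arms, were rno-miR-15b-5p, rno-miR-16-5p, rno-miR-195-5p and rno-miR-497-5p. Cells came from the resting zone (RC-cells) or the growth zone (GC-cells) of the costochondral cartilage of male Sprague Dawley rats, carried no transgene or other treatment, and were cultured to confluence at the fourth passage in medium with foetal bovine serum. Growth zone here means the prehypertrophic and upper hypertrophic cartilage, without the proliferative zone. Per the study's methods, bovine exosomes had been removed from the serum by ultracentrifugation. RC-MVs and GC-MVs were released from such cultures by trypsin, which was stopped with exosome-free serum, and were then collected by differential centrifugation. Each of the 4 groups was 1 library, and the number of animals behind a library was not given in the sources used here. No difference could therefore be set against replicate error, and every interval given is a 95% interval for counting error only, since reads without molecular identifiers are not independent molecules.

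The cell libraries held 6517329 (RC) and 7414467 (GC) miRNA reads and the vesicle libraries 1108821 (RC) and 982543 (GC), so the vesicles had fewer miRNA reads than the cells. A count of 0 in the vesicles allowed a share of up to 3 reads, or 0.000271% for RC-MVs and 0.000305% for GC-MVs. Of the cartilage markers, miR-140-3p held 0.383% to 0.951% of miRNA reads in the 4 libraries and both arms of miR-455 were present. Of the other cartilage markers listed, miR-675-5p had 0 reads in all 4 libraries and miR-675-3p had 1 read, in GC-cells.

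A miRNA guides a silencing complex to messenger RNAs that pair with its seed, the stretch near its 5′ end. Members of the miR-15 family share a seed and are known to hold back the cell cycle by repressing cyclins and their kinases, and miR-15 and miR-16 also target the survival factor Bcl2. miR-16 is present in most cells and is abundant in blood cells and serum, and miR-195 and miR-497 are transcribed together as one cluster. In growing cartilage, resting zone cells are a reserve and MVs are the particles in which matrix mineral first forms.

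The mature 5p sequences from RefSeq (build GRCr8) are shown because the family is defined by what they share. Bases 2 to 8, the seed, are in capitals.

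rno-miR-15b-5p: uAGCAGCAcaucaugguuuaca

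rno-miR-16-5p: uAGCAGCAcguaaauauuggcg

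rno-miR-195-5p: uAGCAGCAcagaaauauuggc

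rno-miR-497-5p: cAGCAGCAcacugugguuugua

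rno-miR-322-5p: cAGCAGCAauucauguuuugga

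All 4 main arms carried 1 seed, AGCAGCA. In the RefSeq table of 693 mature rat names, 5 carried it, and the only one outside the family was rno-miR-322-5p, from chromosome X. All 8 family products matched this table, as did 660 of the 740 measured names. Beyond the seed the arms paired across the 2 gene clusters. rno-miR-16-5p and rno-miR-195-5p differed at 2 of 21 positions compared (G10A and U11G, with the base of miR-16 first and positions counted from 1 at the 5′ end). They also shared the run AAAUAUUGGC, which only these 2 of the 693 mature names held. rno-miR-15b-5p and rno-miR-497-5p differed at 6 of 22 positions. The partners within a cluster were less alike, at 8 positions for miR-15b and miR-16 and 9 for miR-195 and miR-497. How reads that matched 2 such names were assigned is not given in the sources used here, so the split between miR-16-5p and miR-195-5p carries that uncertainty.

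On build GRCr8, Mir15b and Mir16 lay on chromosome 2, plus strand, within the span of Smc4, a condensin gene, with Ift80 and Trim59 on either side. The 5p arm of Mir15b was at chr2:155555197-155555218 and that of Mir16 at chr2:155555343-155555364. Mir497 and Mir195 were neighbours on chromosome 10, plus strand, at chr10:55450172-55450193 and chr10:55450509-55450529 for their 5p arms. They lay between Bcl6b and C10h17orf49, and no other annotated gene spanned them. The reads themselves had been counted on build Rnor_6.0, and no coordinates were converted. The hairpins of Mir16 and Mir195 are given with both mature arms in capitals, because their arms were recovered in very different proportions.

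Mir16: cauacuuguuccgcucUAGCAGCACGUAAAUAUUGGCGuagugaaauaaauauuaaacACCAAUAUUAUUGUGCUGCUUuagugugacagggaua

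Mir195: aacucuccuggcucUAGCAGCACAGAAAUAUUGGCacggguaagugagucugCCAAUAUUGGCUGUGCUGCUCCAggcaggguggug

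The family was a small part of each library and was mostly miR-16-5p. The 4 main arms together held 0.0662% of miRNA reads in RC-cells and 0.00821% in their MVs, against 0.0542% in GC-cells and 0.0385% in their MVs. Of the reads of these arms, miR-16-5p took 89.3% of 4316 in RC-cells, 89.2% of 4015 in GC-cells, 81.3% of 91 in RC-MVs and 95.8% of 378 in GC-MVs. RC-MVs stood apart as the library with the least of the family. All shares are of sequenced reads, and the arms are 21 or 22 bases long.

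rno-miR-16-5p, the most abundant member, had 3856 reads in RC-cells and 74 in their MVs, and 3582 reads in GC-cells and 362 in their MVs. For the resting zone these were 0.0592% of miRNA reads (Wilson interval 0.0573 to 0.0611) in the cells and 0.00667% (0.00532 to 0.00838) in the MVs. For the growth zone they were 0.0483% (0.0468 to 0.0499) in the cells and 0.0368% (0.0332 to 0.0408) in the MVs. No 2 of these intervals overlapped, and on this scale the order was RC-cells, GC-cells, GC-MVs and then RC-MVs, with the cell libraries exchanging places under other scalings. By abundance it ranked 84 of 496 names with reads in RC-cells, 81 of 501 in GC-cells, 93 of 431 in GC-MVs and 174 of 431 in RC-MVs.

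rno-miR-15b-5p, which is encoded beside miR-16, had 344 (RC) and 232 (GC) reads in the cells, but only 11 and 10 in the corresponding MVs. The shares were 0.00528% (0.00475 to 0.00587) and 0.00313% (0.00275 to 0.00356) in the cells and 0.000992% (0.000554 to 0.00178) and 0.00102% (0.000553 to 0.00187) in the MVs. Both cell libraries lay above both vesicle libraries, and the intervals of RC-MVs and GC-MVs overlapped almost fully.

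rno-miR-195-5p had 55 reads in RC-cells, 125 in GC-cells and 1 in each of the MV libraries. Its share was 0.000844% (0.000648 to 0.00110) in RC-cells and 0.00169% (0.00142 to 0.00201) in GC-cells, and these intervals did not overlap. In the vesicles a single read corresponded to 9.02e-05% in RC-MVs and 0.000102% in GC-MVs, under the level of 3 reads in both libraries.

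rno-miR-497-5p had 61 reads in RC-cells, 76 in GC-cells and 5 in each of the MV libraries. The shares were 0.000936% (0.000729 to 0.00120) and 0.00103% (0.000819 to 0.00128) in the cells, and 0.000451% (0.000193 to 0.00106) and 0.000509% (0.000217 to 0.00119) in the MVs, with the resting zone first. All 4 intervals overlapped, so its levels could not be ordered at this depth. Within the cells the order of members also differed in its lower part. miR-195-5p and miR-497-5p were level in RC-cells, at a ratio of 0.902 (0.626 to 1.30), whereas miR-195-5p was 1.64 times miR-497-5p in GC-cells (1.24 to 2.19).

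**Figure D1:**
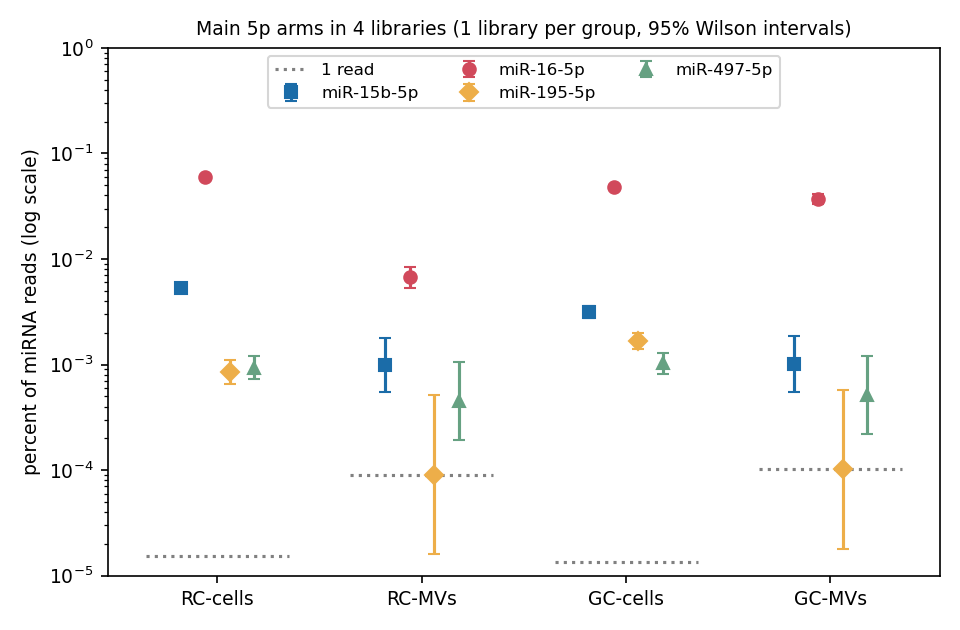
Percent of miRNA reads (vertical axis, log scale) of the 4 main 5p arms in each library, with 1 library per group; bars are Wilson 95% intervals and the dotted lines mark the level of 1 read. miR-16-5p lay between 0.00667% and 0.0592% and above the other arms in every library, and miR-195-5p in both vesicle libraries sat on the line of 1 read.

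The first question was whether the family was taken into MVs in proportion to its level in the cells. In the resting zone all 4 main arms were lower in the MVs by the study's criterion of a 2-fold difference in share. With a pseudocount of 0.5 reads 3 met it, and 2 did with at least 10 reads in both libraries or with the whole interval beyond 2-fold. Of 414 names with reads in both libraries, 30.4% were lower and 33.6% higher by that criterion. The median log2 ratio, MVs over cells, was -2.78 over the 4 arms and 0.08 over all names. miR-16-5p was 8.87-fold lower in RC-MVs (exact Clopper-Pearson interval 7.04 to 11.3) and miR-15b-5p was 5.32-fold lower (2.94 to 10.8). miR-195-5p was 9.36-fold lower on 1 vesicle read, with an interval from 1.61 to 376. The 2.08-fold difference of miR-497-5p had an interval that included no difference (0.843 to 6.62).

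In GC-MVs the same arms were also lower than in their cells, but miR-16-5p far less so. It was 1.31-fold lower (1.18 to 1.46), short of the 2-fold criterion, and the intervals of the shares did not overlap. miR-15b-5p was 3.07-fold lower (1.64 to 6.50), miR-195-5p was 16.6-fold lower on 1 vesicle read (2.92 to 659), and miR-497-5p was 2.01-fold lower with an interval that included no difference (0.826 to 6.38). Thus 3 of the 4 arms met the criterion (2 with a pseudocount of 0.5 or with totals that left out 3 abundant miRNAs, and 1 with at least 10 reads in both libraries or the whole interval beyond 2-fold), where 25.2% of 417 names were lower and 32.1% higher. The median log2 ratio was -1.32 over the arms and 0.13 over all names. The ordering of the arms by depletion also differed from that in the resting zone, with miR-16-5p showing the smallest fold difference of the 4 in the growth zone, although the intervals of miR-497-5p and miR-16-5p overlapped.

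The second question was how the zones differed. In the cells, none of the 4 arms met the 2-fold criterion on shares of reads. miR-195-5p was the nearest, at a ratio of 1.998 in GC-cells over RC-cells (1.44 to 2.80). Among 474 names 5.70% were higher and 13.7% lower in GC-cells. miR-15b-5p was 1.69-fold lower in GC-cells, at a ratio of 0.593 (0.4997 to 0.702), and miR-497-5p had a ratio of 1.10 (0.772 to 1.56). miR-16-5p had a ratio of 0.817 (0.780 to 0.855), a direction that turned under the other scalings, at 1.03 with TMM factors, 1.05 with DESeq2 size factors and 1.02 with totals that left out 3 abundant miRNAs. These scalings moved the median log2 ratio of all names by 0.32 to 0.36 in this comparison, and with them miR-195-5p met the criterion, at 2.49 to 2.56. The share of calls that were higher in GC-cells went from 29.3% to between 59.3% and 62.4%.

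Between the vesicles of the zones, miR-16-5p was the only one of the 4 arms to meet the 2-fold criterion. It was 5.52-fold higher in GC-MVs than in RC-MVs (4.29 to 7.19), and 8.55-fold with totals that left out 3 abundant miRNAs. miR-15b-5p had a ratio of 1.03 (0.391 to 2.66), miR-497-5p 1.13 (0.260 to 4.90) and miR-195-5p 1.13 on 1 read in each library (0.0144 to 88.6). Those totals gave 1.59 for miR-15b-5p and 1.75 for each of the other two. The intervals of these 3 arms left room for a difference of over 2-fold either way, and for miR-15b-5p the upper bound was under the lower bound of miR-16-5p. Among 397 names 14.6% were higher and 24.7% lower in GC-MVs. The other scalings moved the median log2 ratio of all names by 0.20 to 0.63, and the share of calls that were higher in GC-MVs from 37.2% to between 49.0% and 75.5%.

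**Figure D2:**
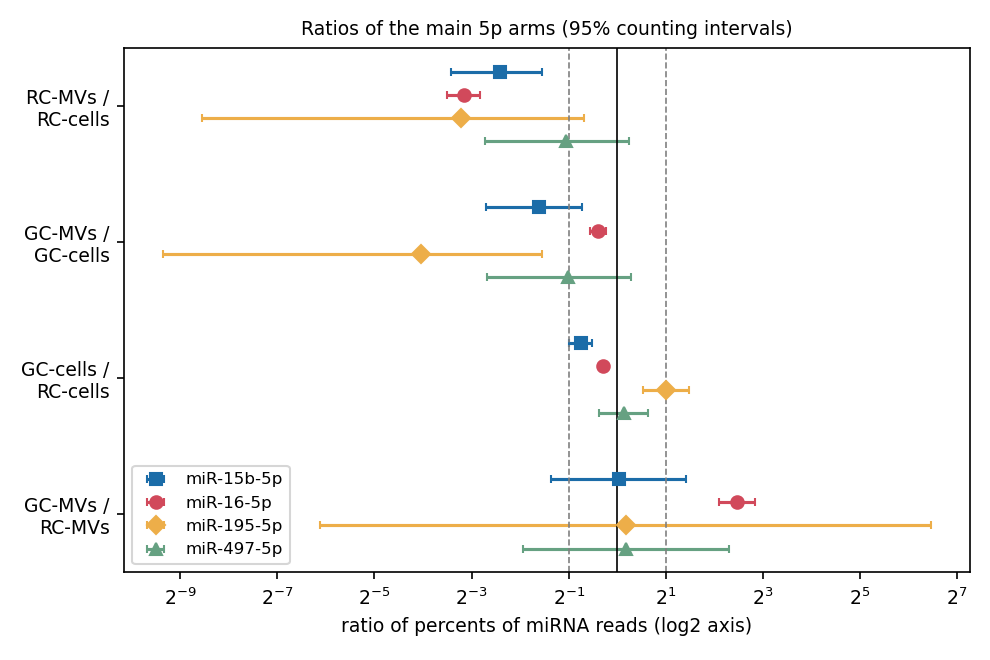
Ratio of percent of miRNA reads for each main 5p arm (log axis) in the 4 comparisons, with exact 95% intervals for counting error and lines at no difference and at 2-fold in either direction. All 4 arms lay at or beyond 2-fold lower in RC-MVs against RC-cells, and miR-16-5p, at 5.52, was the arm beyond 2-fold higher in GC-MVs against RC-MVs.

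The zone difference of the vesicles was then set against that of the cells. The vesicle to cell ratio of miR-16-5p was 6.76 times as large in the growth zone as in the resting zone (5.24 to 8.72), and 6.16 to 8.40 times as large under the other scalings. It was the largest such value of the 262 names with at least 10 reads in all 4 libraries, whose median was 1.00 and whose 95th percentile was 2.51. The next value, 5.96 for miR-369-3p on 10 reads in RC-MVs, lay within the interval of miR-16-5p, and miR-126a-3p, an endothelial marker, and miR-30b-5p followed at 4.88 and 4.59 (names chosen after their values were seen). An order of this kind does not depend on the scaling of the libraries. miR-15b-5p, from the same gene cluster and with the same seed, had 1.73 (0.723 to 4.14). The other arm of its hairpin, miR-15b-3p, had 5.96 (1.99 to 17.8). With 4 reads in RC-MVs it was not among the 262 names. miR-497-5p had 1.03 (0.285 to 3.72) and miR-195-5p 0.565 (0.0347 to 9.20), both with fewer than 10 vesicle reads. With 1 library a group, a difference between single preparations and one between zones cannot be told apart.

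Markers of other cells moved in the same direction between the vesicle libraries. The erythroid markers, of which 3 of the 4 listed were matched in the table, summed to 0.0746% in RC-MVs and 0.159% in GC-MVs, against 0.000123% in RC-cells and 0.000162% in GC-cells. Their main member, miR-451-5p, had 5 and 8 reads in the cells but 681 in RC-MVs and 1401 in GC-MVs. The leukocyte markers (4 of 4 with reads in both vesicle libraries) summed to 0.0141% in RC-MVs and 0.0313% in GC-MVs, and to 0.00114% and 0.00107% in RC-cells and GC-cells, with miR-223-3p at 0 reads in GC-cells. The liver and serum markers (3 of 3) summed to 0.418% in RC-MVs and 1.18% in GC-MVs, and to 0.0284% and 0.0393% in RC-cells and GC-cells. Most of that sum in the vesicles was miR-122-5p, at 4447 (RC) and 11225 (GC) reads, and in RC-MVs against RC-cells only this marker passed 2-fold upward while miR-194-5p passed it downward. The endothelial markers (2 of 2) summed to 0.0158% in RC-MVs and 0.0640% in GC-MVs, and to 0.0266% and 0.0223% in RC-cells and GC-cells. From RC-MVs to GC-MVs these 4 sums were 2.13-fold, 2.23-fold, 2.82-fold and 4.06-fold higher, in that order, beside 5.52-fold for miR-16-5p. With totals that left out 3 abundant miRNAs the sums were 3.29-fold, 3.45-fold, 4.37-fold and 6.28-fold higher, beside 8.55-fold for miR-16-5p. Of the single markers, 2 of 3 erythroid and 2 of 4 leukocyte were at least 2-fold higher in GC-MVs on shares of reads. So were 3 of 3 liver and serum and 1 of 2 endothelial markers, beside 14.6% of 397 names. The cartilage sum, most of it miR-140-3p, had a ratio of 0.841 that other scalings put at 0.968 to 1.30. Of the 4 cartilage markers with reads in both vesicle libraries, 1 was at least 2-fold higher in GC-MVs: miR-140-5p, at 0.0216% there (212 reads) against 0.00848% in RC-MVs (94 reads). The part of RNA from other cells, or from the exosome-depleted serum, in the level of miR-16-5p was not tested. In bulk libraries like these, fewer particles or cells of one kind and less RNA in each cannot be told apart.

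The members were next summed by gene cluster, as miR-15b/miR-16 and miR-195/miR-497. The miR-15b/miR-16 pair held 0.0644% of miRNA reads in RC-cells, 0.0514% in GC-cells, 0.00767% in RC-MVs and 0.0379% in GC-MVs. The miR-195/miR-497 pair held 0.00178% and 0.00271% in the cells of the resting and growth zones, on 116 and 201 reads, and 0.000541% and 0.000611% in their MVs, on 6 reads each. Relative to their cells, miR-15b/miR-16 was 8.41-fold lower in RC-MVs (6.78 to 10.5) and 1.36-fold lower in GC-MVs (1.22 to 1.52). miR-195/miR-497 was 3.29-fold lower in RC-MVs (1.47 to 9.15) and 4.44-fold lower in GC-MVs (2.004 to 12.2). By these sums miR-15b/miR-16 was the more depleted pair in RC-MVs, with overlapping intervals, and miR-195/miR-497 in GC-MVs. The single arms did not order by pair. In RC-MVs over RC-cells the ratios were 0.188 for miR-15b-5p, 0.113 for miR-16-5p, 0.107 for miR-195-5p and 0.482 for miR-497-5p. In GC-MVs over GC-cells they were 0.325, 0.763, 0.0604 and 0.496 in that order. Of the 6 reads of miR-195/miR-497 in each vesicle library, 5 were miR-497-5p.

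Between zones, miR-15b/miR-16 was 4.94-fold higher in GC-MVs than in RC-MVs (3.89 to 6.33), but 2.38-fold with equal weight for both miRNAs and 7.65-fold with totals that left out 3 abundant miRNAs. miR-195/miR-497 had a ratio of 1.13 (0.302 to 4.22), or 1.75 with those totals. In the cells miR-195/miR-497 was 1.52-fold higher in GC-cells (1.21 to 1.93). miR-15b/miR-16 had a ratio of 0.798 there (0.764 to 0.834), which came to 1.01, 1.02 and 0.995 under the other scalings.

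The balance of the pairs, the reads of miR-15b/miR-16 over those of miR-195/miR-497 within a library, needs no scaling. In the resting zone it was 36.2 in the cells (Woolf interval 30.1 to 43.5) and 14.2 in the MVs (6.19 to 32.4), and in the growth zone 19.0 in the cells (16.5 to 21.9) and 62 in the MVs (27.7 to 139). The intervals of the 2 cell libraries did not overlap, and those of the 2 vesicle libraries overlapped slightly. The balance was 0.391 times as high in RC-MVs as in RC-cells (0.168 to 0.914) but 3.27 times as high in GC-MVs as in GC-cells (1.44 to 7.41). From RC to GC, it was 0.524 times as high in the cells (0.415 to 0.661) and 4.38 times as high in the vesicles (1.38 to 13.9). In each vesicle library the lower term was 6 reads. Geometric means of each pair gave 19.9 in RC-cells, 9.35 in GC-cells and 26.9 in GC-MVs. With them the balance was 0.642 times as high in RC-MVs as in RC-cells and 2.11 times as high in GC-MVs as in RC-MVs. These means had no interval and gave full weight to miR-195-5p, at 1 read in each vesicle library. With all arms summed the balance was 8.09 in RC-MVs and 39.1 in GC-MVs.

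**Figure D3:**
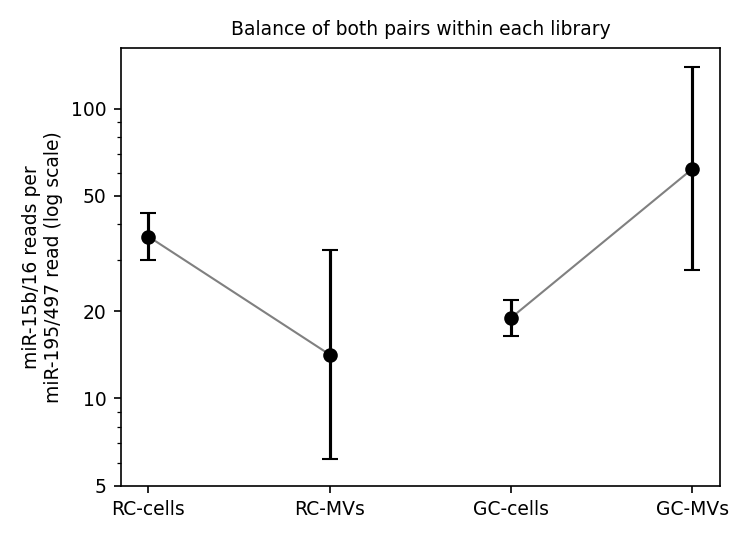
Balance of the pairs in each library (log axis), as reads of miR-15b-5p plus miR-16-5p over reads of miR-195-5p plus miR-497-5p, with Woolf 95% intervals. The balance went from 36.2 in RC-cells to 14.2 in RC-MVs and from 19.0 in GC-cells to 62 in GC-MVs.

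The values of the miR-15b/miR-16 pair were governed by miR-16-5p. Its ratio to miR-15b-5p was 11.2 in RC-cells and 6.73 in their MVs, and 15.4 in GC-cells and 36.2 in their MVs. To miR-195-5p, on 1 read in each vesicle library, its ratio was 70.1 in RC-cells and 74 in RC-MVs, and 28.7 in GC-cells and 362 in GC-MVs. To miR-497-5p, on 5 reads in each vesicle library, it was 63.2, 14.8, 47.1 and 72.4 in that order. The lower balance in RC-MVs thus also rested on the 5 reads of miR-497-5p. When the arms were grouped by sequence instead, miR-15b-5p and miR-497-5p together were 4.31-fold lower in RC-MVs and 2.72-fold lower in GC-MVs than in their cells. Between the vesicles of the zones their ratio was 1.06 (0.487 to 2.28), and 1.64 with totals that left out 3 abundant miRNAs. The interval included no difference and 2-fold either way, and miR-195-5p, the closest in sequence to miR-16-5p, had too few vesicle reads to compare.

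The opposite arms were counted too. Mir16 and Mir497 gave almost only the 5p arm, with 99.7% to 100% of the reads of Mir16 and 98.7% to 100% of those of Mir497. miR-16-3p had 13 (RC) and 9 (GC) reads in the cells but 0 in RC-MVs and 1 in GC-MVs, and miR-497-3p had 1 read, in GC-cells. Mir15b and Mir195 gave both arms. The 5p arm took 54.1% of Mir15b reads in RC-cells (50.2 to 57.9) and 45.0% in GC-cells (40.8 to 49.4), and 73.3% in RC-MVs (48.0 to 89.1) and 35.7% in GC-MVs (20.7 to 54.2). The 2 cell libraries did not overlap, and the vesicle intervals were wide. For Mir195 the 5p arm took 48.2% in RC-cells (39.3 to 57.3) and 55.1% in GC-cells (48.6 to 61.4). In RC-MVs it was 1 of 6 reads and in GC-MVs 1 of 5.

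**Figure D4:**
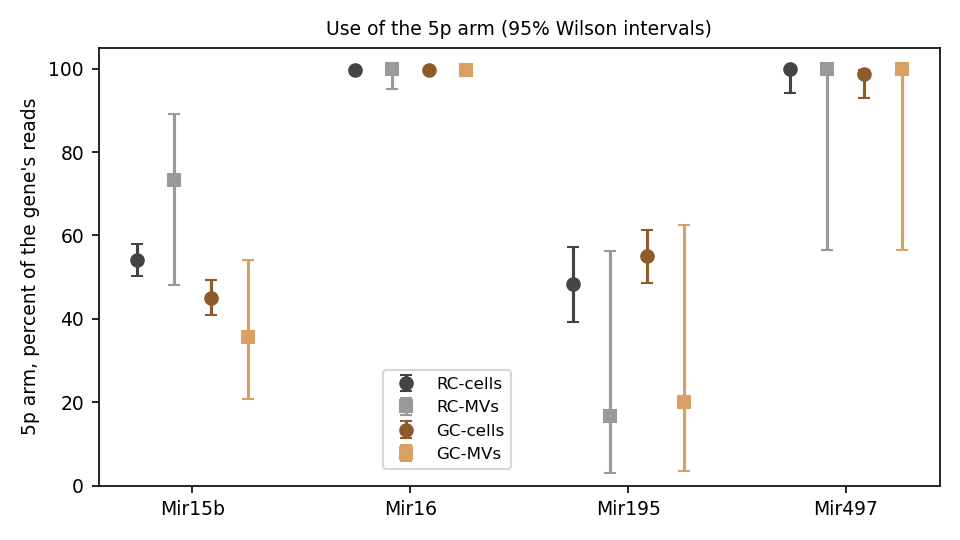
Percent of a gene's mature reads that came from its 5p arm (vertical axis, linear from 0) in the 4 libraries, with Wilson 95% intervals. Mir16 and Mir497 lay at 98.7% or above throughout, whereas Mir15b lay between 35.7% and 73.3% and Mir195 between 16.7% and 55.1%.

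miR-15b-3p had 292 (RC) and 283 (GC) reads in the cells, against 4 in RC-MVs and 18 in GC-MVs. Its level in GC-MVs was 5.08-fold that in RC-MVs (1.67 to 20.6), or 7.86-fold with totals that left out 3 abundant miRNAs, and its vesicle to cell ratio was 5.96 times as large in the growth zone (1.99 to 17.8). These values rest on few vesicle reads, and their intervals overlapped those of the 5p arm of the same hairpin. Relative to the cells it was 12.4-fold lower in RC-MVs (4.80 to 45.9) and 2.08-fold lower in GC-MVs (1.29 to 3.57). With those totals its ratio in GC-MVs over GC-cells was 0.515, short of the 2-fold criterion. miR-195-3p had 59 (RC) and 102 (GC) reads in the cells, against 5 in RC-MVs and 4 in GC-MVs. It was 2.01-fold lower in RC-MVs (0.813 to 6.41) and 3.38-fold lower in GC-MVs (1.28 to 12.6) than in the cells. With the 3p arms included, 6 of the 6 family products with reads in both libraries were at least 2-fold lower in RC-MVs, and 5 of 7 in GC-MVs, beside 30.4% and 25.2% of all names. With totals that left out 3 abundant miRNAs, miR-15b-3p and miR-497-5p (a ratio of 0.533) no longer met the 2-fold criterion in GC-MVs. Of the products counted, miR-497-5p in both zones and miR-195-3p in RC-MVs had intervals that included no difference.

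The seed was also carried by a product of Mir322, a gene of the X chromosome. The count table named its products rno-miR-322 and rno-miR-322*, and which of them is the 5p arm was not given there. rno-miR-322 had 750 reads in RC-cells and 18 in their MVs, then 291 in GC-cells and 13 in their MVs, and rno-miR-322* had 2341, 147, 573 and 41 in that order. Both were lower in the vesicles, rno-miR-322 by 7.09-fold in RC-MVs and 2.97-fold in GC-MVs and rno-miR-322* by 2.71-fold and 1.85-fold. Between the cells, rno-miR-322 was 2.93-fold lower in GC-cells (2.56 to 3.37) and rno-miR-322* 4.65-fold lower (4.24 to 5.10). Between the vesicles, rno-miR-322* was 3.18-fold lower in GC-MVs (2.23 to 4.61). Its ratio was 0.315, or 0.487 with totals that left out 3 abundant miRNAs. The 1.23-fold difference of rno-miR-322 had an interval that included no difference (0.568 to 2.72). That difference turned to a ratio of 1.26 with those totals.

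The miRNAs whose pattern over the 4 libraries was most like that of each arm were found from the root mean square difference of centred log2 shares, among names with at least 10 reads in all 4 libraries. Each arm had different nearest names, but the distances carry no interval. Except for miR-16-5p, the vesicle values of the arms rest on few reads, so the order of near names is not resolved. For miR-15b-5p they were miR-410-3p (0.0574), miR-485-3p (0.114) and miR-136-3p (0.121). For miR-16-5p the nearest were farther off, at 0.36 for miR-31a-3p, 0.361 for miR-218a-5p and 0.387 for miR-148a-3p. For miR-497-5p, at 5 reads in each vesicle library, they were miR-30e-5p (0.101), miR-30a-5p (0.111) and miR-21-5p (0.138). For miR-195-5p, whose vesicle values were 1 read each, they were let-7f-5p (0.486), miR-674-3p (0.526) and miR-98-5p (0.554). Of the family only miR-15b-5p and miR-16-5p had enough reads to be a neighbour of another arm.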

How the data were processed

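The authors deposited raw counts (whole numbers, not normalized), with 1 row for each miRNA locus and 1 column for each library. The submitters' processing notes name Bowtie2 and the rat build Rnor_6.0, and per the methods of the study miARma-Seq made the table. How reads were trimmed, and how those matching more than 1 name were counted, is not given in the sources used here. From these counts, 774 rows were reduced to 740 names by summing the 28 names with several loci. Shares are percent of all miRNA reads of the library. Intervals at 95% are Wilson for shares, exact Clopper-Pearson for ratios of shares and log-normal (Woolf) for ratios of ratios, from scipy 1.17.1. With 1 library per group, no test was run and no p-value is given. A 2-fold ratio, the study's criterion, was the call, among names with at least 1 read in both libraries.

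The text names the family products, same-seed miRNAs, 3 profile neighbours per main arm and marker miRNAs. Members and lists were chosen with earlier results of these data known. Alternatives used edgeR 4.0.16 TMM factors, DESeq2 1.42.0 size factors, totals that left out the 3 abundant miRNAs miR-143-3p, miR-21-5p and miR-22-3p, a pseudocount of 0.5 reads, other thresholds and other summing of arms. Sequences are from RefSeq (GRCr8). Interval and ratio code was tested on simulated data.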

Additional observations from a re-analysis of the deposited data

Results flagged for a closer look

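These results were singled out because a ratio lay above 1 in one zone or sample type and below 1 in the other. None of the differences was tested, since each group was 1 library. The balance of miR-15b/miR-16 over miR-195/miR-497 was 0.391 times as high in RC-MVs as in RC-cells and 3.27 times as high in GC-MVs as in GC-cells. From the resting to the growth zone the balance was 0.524 times as high in the cells and 4.38 times as high in the vesicles, or 2.11 times from geometric means.

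The growth zone over resting zone ratio of miR-16-5p was 0.817 in the cells, where other scalings put it above 1, and 5.52 in the vesicles. For the miR-15b/miR-16 pair it was 0.798 in the cells, which other scalings put between 0.995 and 1.02, and 4.94 in the vesicles (2.38 with equal weight for both miRNAs and 7.65 with totals that left out 3 abundant miRNAs). For miR-15b-3p it was 0.852 and 5.08, for miR-15b-5p 0.593 and 1.03, and for miR-195-3p 1.52 and 0.903. Under the other scalings the cell ratio of miR-15b-3p was 1.06 to 1.09 and the vesicle ratio of miR-195-3p 1.04 to 1.40, so neither pair of ratios then lay on opposite sides of 1. The vesicle ratios of miR-15b-5p and miR-195-3p had counting intervals that included 1, as did the cell ratio of miR-15b-3p (0.721 to 1.01).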

How the results depend on the processing

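No call changed direction under the alternatives run, which were 3 other scalings, a pseudocount of 0.5, all arms, equal weight for both miRNAs of a pair and other call criteria. The ratio of miR-15b/miR-16 in GC-cells over RC-cells was 1.01 with TMM, 1.02 with DESeq2 size factors, 0.995 with totals that left out 3 abundant miRNAs, and 0.696 as a mean log2 ratio. In GC-MVs over GC-cells it was 0.630 with TMM and 0.498 as a mean log2 ratio, and in GC-MVs over RC-MVs 7.65 with those totals and 2.38 as a mean log2 ratio. The ratio of miR-195/miR-497 in GC-cells over RC-cells was 1.95 with DESeq2 size factors. The balance of the pairs with all arms was 25.7 in RC-cells and 13.5 in GC-cells, and from geometric means 19.9, 9.35 and 26.9 in RC-cells, GC-cells and GC-MVs. Its vesicle to cell ratio stayed on the same side of 1, at 0.314 and 2.89 in RC and GC with all arms and 0.642 and 2.88 from geometric means. No interval was computed for these alternatives. The geometric means give miR-195-5p, at 1 read in each vesicle library, the same weight as miR-497-5p, so they cannot settle a direction. The balance in GC-MVs over RC-MVs was 4.83 with all arms and 2.11 from geometric means. Of the main arms, 2 rather than 4 were called in RC-MVs against RC-cells when the whole interval had to pass 2-fold, and 2 with at least 10 reads in both libraries. In GC-MVs against GC-cells 1 rather than 3 was called under either criterion, and 1 at a 4-fold threshold. In GC-cells against RC-cells 1 was called rather than 0 under each of the 3 scalings. The ratio of miR-497-5p to its cells came to 0.526 in RC-MVs and 0.542 in GC-MVs with the pseudocount, and to 0.533 in GC-MVs with those totals, so it was no longer called. The ratio of miR-15b-3p in GC-MVs over GC-cells came to 0.515 with those totals and was no longer called either. Depth limits miR-195-5p and miR-497-5p in the vesicles, at 1 and 5 reads. No paired analysis was run, since each group was 1 library and the labels give no replicate numbers.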
